A study of Rattus norvegicus and Mus musculus with 14 samples.

Results

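A group of 7 genes of membrane traffic were followed through the series: clathrin heavy chain Cltc, the adaptor subunit Ap2m1, the endocytic scaffold Eps15, the SNARE genes Snap23 and Stx7, and the synaptic vesicle genes Sv2b and Dmxl2. They were chosen by name. Of the 1152 probes on the cDNA array, 384 carried 1 gene symbol in the platform annotation, and 8 of these belonged to the 7 genes, with 2 probes for Cltc and 1 for each other gene. These were 7 of 342 named genes. The arrays came from rat embryonic cortical neuron cultures (12 arrays) and adult mouse cortex (2 arrays). The cultures formed a MEK set and a NOS set. Both were run as experiments 1 and 2, with 1 array for every treatment in an experiment. Cultures received a control solution named CSS, NMDA alone, or NMDA together with an inhibitor, and neither doses nor times are labelled. NMDA activates one type of glutamate-gated channel that admits calcium. The inhibitor was PD98059 in the MEK set, an inhibitor of MEK, the kinase that activates ERK, and nitroarginine in the NOS set, which blocks nitric oxide synthase. All inhibitor arrays also received NMDA, and no culture received an inhibitor alone. The mouse arrays were 1 nNOS knockout and 1 wild-type littermate, both c57bl. The labels give no number of animals and no allele.

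Clathrin-mediated endocytosis begins when the AP2 adaptor gathers cargo at the plasma membrane and recruits clathrin, whose heavy chains form the lattice of the coat. Membrane fusion runs the other way: SNARE proteins on facing membranes zip together and merge them. In neurons the coat retrieves synaptic vesicles and internalizes glutamate receptors, while SNAREs drive transmitter release, receptor insertion and endosome traffic.

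Each array's values were Z-scores, so a Z unit is close to the SD of that array's own probes. They give no fold change, and levels of different probes were not compared. The 5 MEK set arrays other than control 1 correlated with each other at r = 0.971 to 0.995, and those of NOS experiment 1 at 0.989 to 0.991. The deposited column of the control of MEK experiment 1 stood 1 row from its probes. Moved down by 1 row, it correlated with the rest of that set at 0.858 to 0.867. The arrays of NOS experiment 2 stood apart, correlating at 0.454 to 0.617 with NOS experiment 1 and 0.894 to 0.937 among themselves. Several of the values that rest on the moved column or on NOS experiment 2 are also given without them. No probe was named for the deleted nNOS gene (Nos1), so the knockout label could not be checked. Of the neuronal markers 3 of 13 had probes (Uchl1, Nefl and Stmn2), of the astrocyte markers 2 of 9, of the endothelial and fibroblast markers 2 of 7, of the microglial markers 1 of 6, and of the oligodendrocyte markers 0 of 6. In bulk RNA, fewer cells of a type and less RNA per cell cannot be told apart.

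Promoter sequences are shown for the 3 genes that the results below turn on: Sv2b, whose direction was shared by all experiments, and Stx7 and Dmxl2, which varied together. They are the 250 bases before the start site in RefSeq's rat assembly GRCr8, written 5′ to 3′ on the gene's strand. Capitals mark the short CRE motif TGACG (the core of the element bound by CREB, a factor that NMDA receptors and ERK can activate) and the GC box GGGCGG, on either strand. The 2 motifs do not overlap here.
Sv2b (minus strand, chr1:138562259-138562508): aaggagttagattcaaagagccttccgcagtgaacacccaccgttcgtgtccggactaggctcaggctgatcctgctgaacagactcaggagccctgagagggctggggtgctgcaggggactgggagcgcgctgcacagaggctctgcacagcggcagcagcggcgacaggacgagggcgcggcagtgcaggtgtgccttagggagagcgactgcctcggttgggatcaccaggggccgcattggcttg
Stx7 (minus strand, chr1:23056466-23056715): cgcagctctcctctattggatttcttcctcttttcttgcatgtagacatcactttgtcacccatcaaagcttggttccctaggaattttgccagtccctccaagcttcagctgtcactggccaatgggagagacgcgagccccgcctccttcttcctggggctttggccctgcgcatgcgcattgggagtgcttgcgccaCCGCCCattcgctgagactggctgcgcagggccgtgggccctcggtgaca
Dmxl2 (minus strand, chr8:63781117-63781366): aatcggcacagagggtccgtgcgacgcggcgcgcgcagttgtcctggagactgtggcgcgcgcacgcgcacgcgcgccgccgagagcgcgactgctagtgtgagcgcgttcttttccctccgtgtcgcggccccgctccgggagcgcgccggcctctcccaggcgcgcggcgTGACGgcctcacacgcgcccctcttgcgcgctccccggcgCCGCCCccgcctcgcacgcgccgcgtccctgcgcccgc
The Sv2b window held neither motif, the Stx7 window 1 GC box starting at -50, and the Dmxl2 window a short CRE motif at -78 and a GC box at -38. Over 33469 rat promoters of the same length, 18.2% held a short CRE motif and 30.5% a GC box. Among the other members, Ap2m1 had 1 short CRE motif and 6 GC boxes, Eps15 5 GC boxes, Cltc 2, and Snap23 neither motif. The full CRE, TGACGTCA, was in 0 of the 7 windows and in 1.59% of all. The Dmxl2 window was the richest of the 7 in GC, at 77.6% with 50 CG dinucleotides. The median over all promoters was 51.2% and 5. A match is a description of letters and shows no binding.

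**Figure D1:**
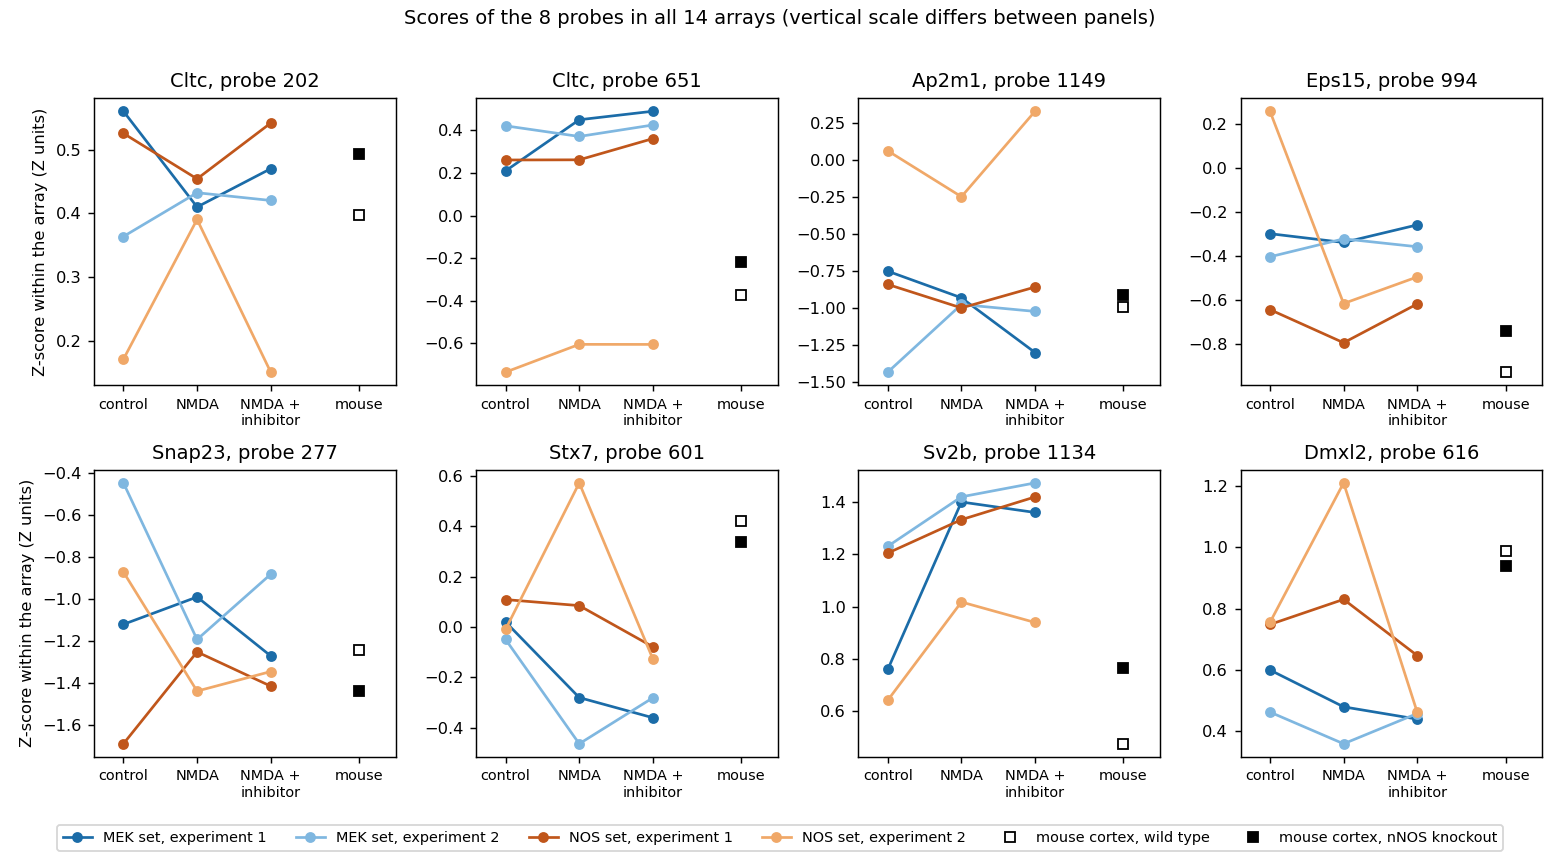
Z-score of each probe in each array (vertical axis, Z units, own scale per panel) against treatment (horizontal axis). Lines join the 3 arrays of 1 experiment, and squares are the mouse cortex arrays. Sv2b lay above its experiment's control in all 8 stimulated arrays, while most other probes moved differently between experiments.

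NMDA was compared with control to ask what receptor activation did to these transcripts. Sv2b encodes a transporter-like glycoprotein of synaptic vesicles, and it was the 1 member whose score lay above control in every experiment. In MEK experiments 1 and 2 its control scores were 0.76 and 1.23 and its NMDA scores 1.40 and 1.42. In NOS experiments 1 and 2 the controls were at 1.20 and 0.64 and the NMDA arrays at 1.33 and 1.02. The groups did not overlap in the MEK set, as for 24.4% of all probes with NMDA higher, and overlapped in the NOS set, where both arrays of experiment 2 were below those of experiment 1. The differences within experiments were 0.64, 0.19, 0.13 and 0.38 Z units. With the inhibitor added, Sv2b stayed above control too, by 0.60 and 0.24 with PD98059 and by 0.21 and 0.30 with nitroarginine. All 8 stimulated arrays thus exceeded the control of their experiment, as they did for 6.08% of all probes. All 8 lay below it for 0 members and 2.17% of probes. NMDA alone exceeded control in 4 of 4 experiments for 10.2% of probes.

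Over both sets the Sv2b difference was 0.33 Z units (SE 0.21, 95% interval -0.13 to 0.80, n = 4 arrays each), which did not pass (limma, adjusted p = 0.9997). Of the 4 differences, the largest came from the moved control column. Without that array the value was 0.22, and without NOS experiment 2 it was 0.27. Without the control of NOS experiment 2 alone it was 0.19, and the NOS set value turned from 0.25 to -0.030. Leaving out 1 array at a time gave 0.19 to 0.47 over both sets. With experiment as a block and all arrays kept, the difference was 0.33 (SE 0.11), which did not pass either (limma, adjusted p = 0.384). The 24 probes around Sv2b in the probe order had median differences of 0.02, -0.03, -0.06 and -0.14 in the 4 experiments. Neuronal marker probes also lay above control in many arrays: Nefl, the neurofilament light chain, by 0.47, 0.64, 0.085 and 0.24, and a probe of the neuronal ubiquitin hydrolase Uchl1 by 1.18, 0.27, 0.34 and 0.31. Stmn2, a neuronal stathmin, was at 0.32, -0.15, 0.12 and 0.70, and the other Uchl1 probe at 0.63, 0.44, -0.0050 and 0.67. Astrocyte probes were at -0.48 to 0.65, the microglial probe at -0.18 to 0.49, and endothelial and fibroblast probes at -0.16 to 0.93. Of these, 1 probe of the fibroblast collagen Col1a2 was above control in all 4 experiments, by 0.27, 0.33, 0.043 and 0.40, and the other Col1a2 probe was at -0.030, 0.12, -0.16 and 0.93. The part of these markers in the Sv2b values was not tested.

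Limma placed 0 of the 8 member probes past an adjusted p of 0.05 for NMDA in either set, over both sets, or for the difference between sets, with or without experiment as a block. The background was 0% of 1151 probes, higher or lower, in each of these. At an unadjusted p under 0.05 there were 16 probes in the MEK set, 2 in the NOS set and 11 over both sets. With experiment as a block these counts were 166, 57 and 128. Members lay on both sides of 0: 4 of 8 were higher in the MEK set (median -0.0099, all probes 0.0041) and 5 of 8 in the NOS set (median 0.070, all probes 0.023). Separate cultures are not named in the labels, and the p-values cover no more than array-to-array spread, part of which can be technical. Without a block, that spread includes the shift between the experiments of a set. The median absolute shift over all probes was 0.62 in the NOS set and 0.11 in the MEK set. Spread was pooled over the groups of both sets, so the NOS shift also enters the SE and p-values of the MEK set.

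**Figure D2:**
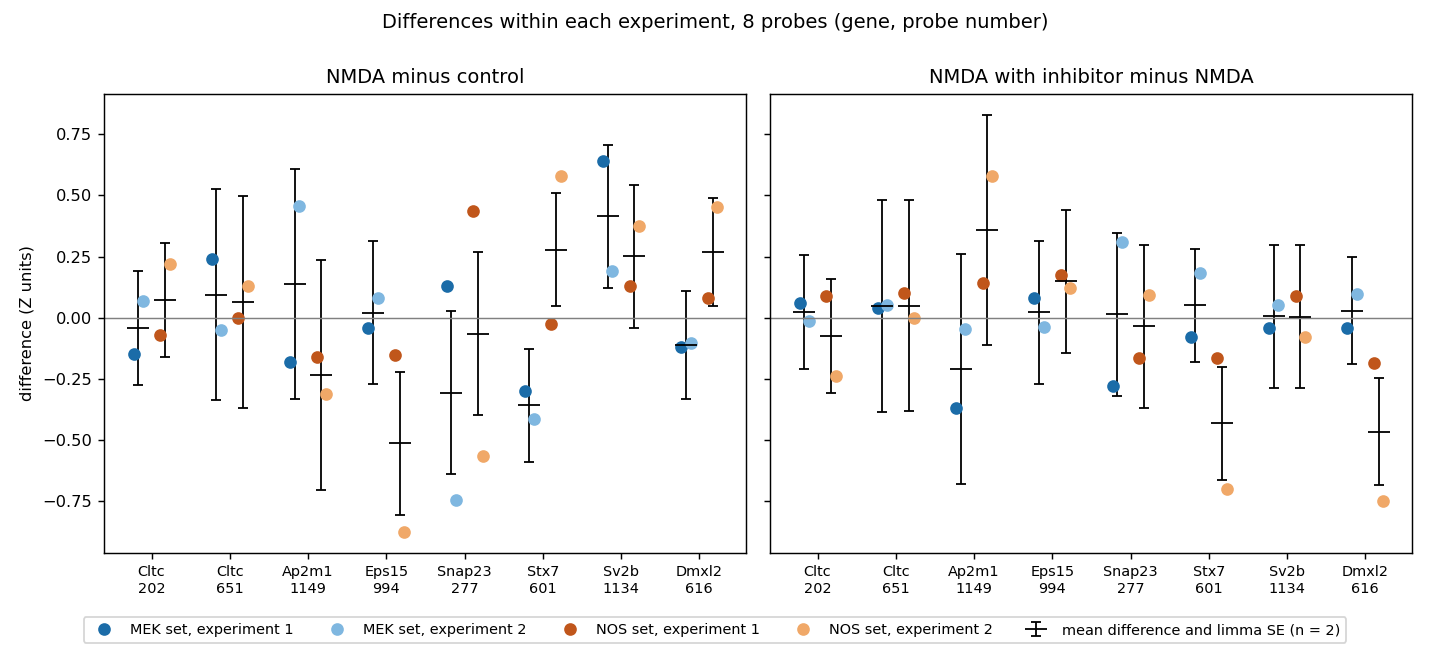
Differences within each experiment (vertical axis, Z units) for each probe (horizontal axis), with the set's mean difference and its limma SE (n = 2 per group). Left, NMDA minus control; right, NMDA with inhibitor minus NMDA. Sv2b is above 0 in all 4 experiments on the left, and Stx7 and Dmxl2 are lowest in NOS experiment 2 on the right.

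Stx7, a SNARE of late endosomes and lysosomes, lay below its experiment's control in 7 of 8 stimulated arrays, the exception being NMDA in NOS experiment 2. The share of all probes with 7 of 8 on one side was not counted. Cltc probe 651 and the vesicle gene Cadps lay above control in 7 of 8, and the vesicle gene Ap2b1 in 1 of 8. In the MEK set the Stx7 controls were at 0.02 and -0.05, the Stx7 NMDA arrays at -0.28 and -0.46 and its PD98059 arrays at -0.36 and -0.28. Both control arrays were thus above all 4 stimulated arrays. NMDA arrays lay below both controls without overlap for 20% of all probes in that set. That share leaves out the PD98059 arrays, and the share with them was not counted. The Stx7 difference was -0.36 Z units (SE 0.23, 95% interval -0.88 to 0.16; limma, adjusted p = 0.998), and -0.32 without the moved array. In the NOS set the controls were at 0.11 and -0.0092, the NMDA arrays at 0.085 and 0.57, and the nitroarginine arrays at -0.079 and -0.13. NMDA minus control was 0.28 there (SE 0.23), with 0.58 in experiment 2 and -0.024 in experiment 1. Without the NMDA array of experiment 2 it was 0.035. All 24 probes within 12 rows of Stx7 were also higher with NMDA in experiment 2, with a median of 0.45, and with a running median over 25 probes of the probe order removed the NOS set value was 0.057. The effect in the NOS set minus that in the MEK set was 0.64 (SE 0.33, 95% interval -0.10 to 1.37; limma, adjusted p = 0.999). Without NOS experiment 2 it was 0.33.

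Dmxl2 encodes rabconnectin-3 alpha, a large synaptic vesicle protein that helps assemble the vesicular proton pump. Its scores in MEK experiments 1 and 2 were 0.60 and 0.46 in control, 0.48 and 0.36 with NMDA, and 0.44 and 0.46 with PD98059. In NOS experiments 1 and 2 they were 0.75 and 0.75 in control, 0.83 and 1.21 with NMDA, and 0.65 and 0.46 with nitroarginine. Control arrays agreed closely in the NOS set, both NMDA arrays were above them, and both nitroarginine arrays were below them. NMDA and control arrays of the NOS set did not overlap, with NMDA higher, for 5.73% of all probes, and with NMDA lower for 4.6% of probes and 0 members. For nitroarginine below control, alone or together with NMDA above it, the share was not counted. NMDA minus control was 0.27 in the NOS set (SE 0.22) and -0.11 in the MEK set (SE 0.22). Their difference of 0.38 did not pass (SE 0.31; limma, adjusted p = 0.999). It was 0.19 without NOS experiment 2, and also without the NMDA array of that experiment alone.

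The nitroarginine arrays were set against NMDA alone to see how blocking nitric oxide synthesis altered the NMDA-treated state. Stx7 and Dmxl2 had the most negative member differences. Stx7 was at -0.43 Z units (SE 0.23, 95% interval -0.95 to 0.089) and Dmxl2 at -0.47 (SE 0.22, 95% interval -0.96 to 0.031; n = 2 each). In experiments 1 and 2 the differences were -0.16 and -0.70 for Stx7 and -0.18 and -0.75 for Dmxl2. Both inhibited arrays lay below both NMDA arrays for these 2 members, as for 5.56% of all probes. The reverse held for 0 members and 3.56% of probes. Neither passed (limma, adjusted p = 0.998 for each), and 0% of probes did in either direction, with 1 probe at an unadjusted p under 0.05 and 42 with experiment as a block.

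The neighbours of these 2 probes in the array's order moved the same way in NOS experiment 2. Of the 24 probes within 12 rows of Stx7, 23 were lower with nitroarginine there, with a median of -0.48. Around Dmxl2, 22 of 24 were lower, with a median of -0.39. In NOS experiment 1 the medians were 0.030 and 0.011. The 2 members lie 15 rows apart. With a running median over 25 probes removed along the probe order, the Stx7 difference turned to 0.0050 and that of Dmxl2 was -0.25. Which rows lay together on the slide is unknown, and the part of position was not tested beyond this.

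**Figure D3:**
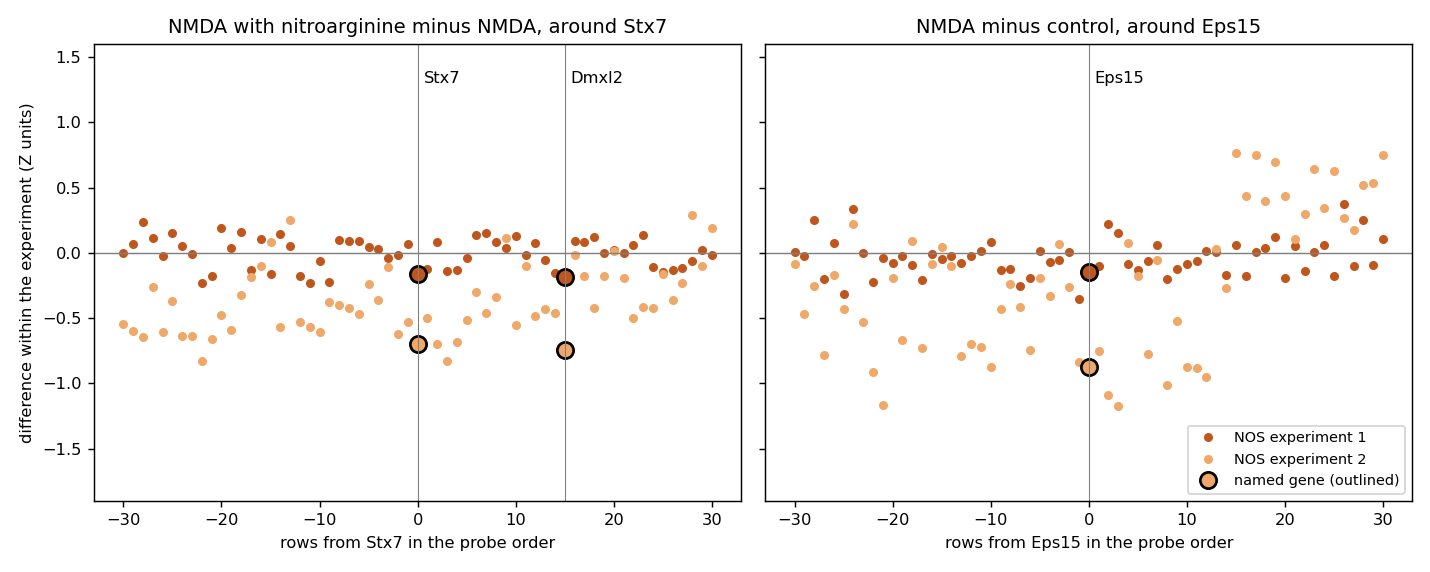
Differences within NOS experiments 1 and 2 (vertical axis, Z units) against distance in rows along the probe order (horizontal axis), for nitroarginine around Stx7 (left) and NMDA around Eps15 (right). Outlined points are the named genes. In experiment 2, 23 of 24 neighbours within 12 rows of Stx7 and 22 of 24 within 12 rows of Eps15 lay below 0, and in experiment 1 values scattered near 0. Beyond about 15 rows after Eps15 the experiment 2 values lay above 0.

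Eps15, a scaffold at the rim of clathrin-coated pits that binds AP2, had the most negative member difference under NMDA in the NOS set. Its controls there were at -0.65 and 0.26, its NMDA arrays at -0.80 and -0.62 and its nitroarginine arrays at -0.62 and -0.50. The control of experiment 2 was far above the other 5 arrays. NMDA minus control was -0.51 Z units (SE 0.29, 95% interval -1.17 to 0.15; limma, adjusted p = 0.9998), with -0.15 and -0.87 in experiments 1 and 2. Without the control of experiment 2 it was -0.062. Of the 24 probes around Eps15, 22 were lower with NMDA in NOS experiment 2, with a median of -0.71. With the running median removed the value was -0.032. In the MEK set the 6 arrays were at -0.41 to -0.26, and NMDA minus control was 0.021 (SE 0.29).

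Snap23, a plasma membrane SNARE related to SNAP-25 that also acts at postsynaptic membranes, did not keep its direction between experiments under NMDA. Its controls were at -1.12 and -0.45 in the MEK set and at -1.69 and -0.87 in the NOS set. The NMDA arrays lay closer together, at -0.99 and -1.19 in the MEK set and -1.25 and -1.44 in the NOS set. NMDA minus control was thus 0.13 and -0.74 in MEK experiments 1 and 2 and 0.44 and -0.57 in NOS experiments 1 and 2. Experiment 1 was higher and experiment 2 lower in both sets. The means were -0.31 in the MEK set (SE 0.33; limma, adjusted p = 0.998) and -0.065 in the NOS set (SE 0.33). With the column of MEK control 1 left as deposited, the MEK value was -1.04, where the score belongs to another probe. Snap23 had inhibitor differences of -0.28 and 0.31 with PD98059 and -0.16 and 0.093 with nitroarginine.

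Cltc, the clathrin heavy chain, had NMDA differences on both probes that were small beside their SE. Both probes carry the same gene ID in the annotation. Probe 202 ran from 0.15 to 0.56 over the 12 rat arrays, with a median of 0.43. Probe 651 ran from -0.74 to 0.49, with a median of 0.31. Without NOS experiment 2 both ranges were narrow, at 0.36 to 0.56 for probe 202 and 0.21 to 0.49 for probe 651. In NOS experiment 2 probe 651 was at -0.74 to -0.60, a mean of 0.94 below experiment 1, while the mean of probe 202 was 0.27 below. The median absolute shift over all probes was 0.62. NMDA minus control over both sets was 0.017 for probe 202 (SE 0.16, 95% interval -0.36 to 0.39) and 0.080 for probe 651 (SE 0.31, 95% interval -0.61 to 0.77). Across arrays, after each experiment's mean was subtracted, the 2 probes correlated at r = -0.15 over 12 arrays and -0.55 without NOS experiment 2.

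Ap2m1, the AP2 subunit that reads tyrosine-based sorting signals in cargo, was at -1.43 to -0.75 in the 9 arrays outside NOS experiment 2 and at -0.25 to 0.33 within it. The shift between NOS experiments was 0.95 upward. NMDA minus control was -0.18 and 0.46 in MEK experiments 1 and 2 and -0.16 and -0.31 in NOS experiments 1 and 2. No direction was shared, and the value over both sets was -0.048 (SE 0.33; limma, adjusted p = 0.9997). With nitroarginine it was higher than with NMDA by 0.14 and 0.58, a mean of 0.36 (SE 0.47). The 15 probes within 12 rows of it had a median of 0.27 in NOS experiment 2.

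The PD98059 arrays were set against NMDA alone to see how blocking MEK altered the NMDA-treated state. Member differences were small: 7 of 8 probes were above 0, as were 70.9% of all probes, with a median of 0.023 against 0.021 over all. Sv2b was at 0.0066 (SE 0.29, 95% interval -0.65 to 0.67), Stx7 at 0.051 (SE 0.23) and Dmxl2 at 0.029 (SE 0.22). Ap2m1 was at -0.21 (SE 0.47), with -0.37 and -0.047 in the experiments, and was the 1 member whose groups did not overlap, with 8.94% of probes lower in the same way. PD98059 arrays lay above both NMDA arrays for 0 members and 14.3% of probes. Limma passed 0 members and 0% of probes in either direction, with 0 probes at an unadjusted p under 0.05 and 5 with experiment as a block. The narrowest interval, that of Dmxl2, ran from -0.47 to 0.53, so these values do not show that MEK inhibition left the members alike. These intervals come from the fit without a block, whose pooled spread includes the shift between the NOS experiments. Within MEK experiments 1 and 2 the Dmxl2 differences were -0.040 and 0.099, where the SD over all probes was 0.16 and 0.10. The same NMDA arrays enter this comparison and NMDA against control, as do those of the NOS set.

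In mouse cortex, 0 of the 8 probes differed by more than 0.5 Z units between the nNOS knockout and the wild type. Over all probes 0.781% were higher and 1.56% lower by that much. There was 1 array per genotype, so no test was made. Sv2b was at 0.77 in the knockout and 0.48 in the wild type, a difference of 0.29 that was the largest among the members. Uchl1, the neuronal marker, was higher in the knockout by 0.19 and 0.42 on its probes, while Nefl differed by -0.065 and Stmn2 by 0.0021. The fibroblast marker Fbn1 was higher by 0.52, the largest difference among the marker probes, and the microglial Csf1r differed by -0.15. The other marker probes, of astrocytes and Col1a2, were at -0.062 to 0.10. The part of these cell types in the Sv2b value was not tested. Eps15 was at -0.74 and -0.93, Cltc at 0.49 and 0.40 on probe 202 and at -0.22 and -0.37 on probe 651, and Ap2m1 at -0.91 and -0.99. Snap23 was lower in the knockout, at -1.44 against -1.24, as were Stx7 at 0.34 against 0.42 and Dmxl2 at 0.94 against 0.99.

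Beside the 9 rat arrays outside NOS experiment 2, both mouse arrays were lower for Cltc probe 651 and higher for Stx7 and Dmxl2, whose rat ranges were -0.46 to 0.11 and 0.36 to 0.83. The wild type alone was below the rat ranges of Sv2b (0.76 to 1.47) and Eps15 (-0.80 to -0.26). Shares of all probes with mouse values outside their rat range were not counted, so these members cannot be called unusual. With NOS experiment 2 included, the rat ranges of Cltc probe 651, Stx7 and Dmxl2 enclosed both mouse values. Species, age and cell makeup differ between these sources and cannot be told apart.

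**Figure D4:**
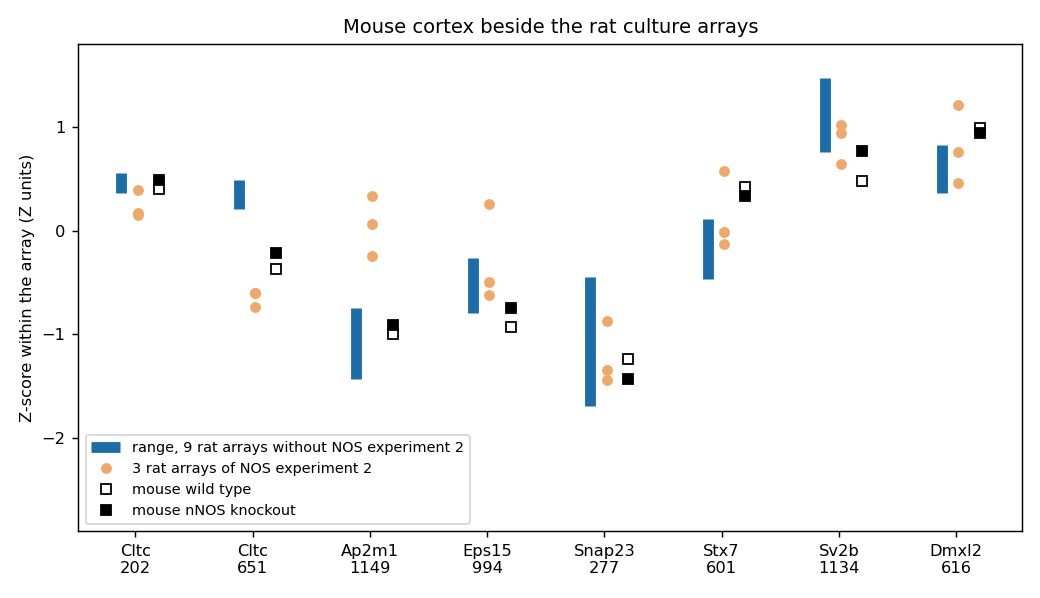
Z-scores within the array (vertical axis, Z units) for each probe (horizontal axis): bars span the 9 rat arrays outside NOS experiment 2, circles are its 3 arrays, and squares are mouse cortex. Stx7 and Dmxl2 in mouse cortex lay above the bars and within the spread of the circles. Levels are not comparable between probes.

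Other genes of the same machinery were looked up from a list of 176. Of these 4 had a probe: Ap2b1, the beta subunit of AP2; Dnajc6, auxilin, which helps strip clathrin from vesicles; Rab7a, a GTPase of late endosomes; and Cadps, a priming factor for dense-core vesicles. Limma passed 0 of 4 in each direction in every rat comparison. Ap2b1 had NMDA minus control of -0.24 Z units over both sets (SE 0.35), with -0.24, -0.0015, -0.026 and -0.70 in the 4 experiments, so it was below control in all 4, as were 4.6% of all probes. Its probe is 12 rows from Eps15, among the neighbours that were lower in NOS experiment 2, and without that experiment the value was -0.073. Dnajc6 was at 0.12 (SE 0.40), with 0.32, 0.26, 0.076 and -0.17. Cadps was at 0.021 (SE 0.35) and Rab7a at -0.020 (SE 0.18). Without NOS experiment 2, Dnajc6 was at 0.18, Cadps at -0.0018 and Rab7a at -0.023. Rab7a scored 0.44 to 0.76 in all 6 MEK set arrays and -1.51 to -0.95 in all 6 NOS set arrays, with mouse cortex at -0.95 and -0.89. Treatments were compared within sets, and this difference in level between sets was noticed after the values were seen.

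Likeness between profiles was measured as Pearson's r over the 12 rat arrays after each experiment's mean was subtracted. The arrays share their experiments, so these values are descriptions. Among the members, the most alike pairs were Stx7 and Dmxl2 with r = 0.89 (0.83 without NOS experiment 2), and Sv2b and Cltc probe 651 with 0.90 (0.88). An r over 0.8 was found for 3.72% of all probe pairs. It was found for 7.31% of pairs 15 rows apart, the distance between Stx7 and Dmxl2. The other Cltc probe, 202, had -0.068 with Sv2b (-0.55 without NOS experiment 2), so the likeness did not hold for both probes of the gene. The named genes most like Stx7 were Angptl4 (0.992) and Gabrp (0.951), and those most like Dmxl2 were Cby1 (0.940) and Angptl4 (0.903). For Sv2b they were Sgip1 (0.960), an adaptor-like protein of endocytosis, and Hsp90ab1 (0.954). For Cltc they were Antxr1 (0.920) and Mapk9 (0.912) on probe 202 and COX3 (0.956) and Cct5 (0.943) on probe 651. For Eps15 they were Slc27a1 (0.969) and Psmc3 (0.960), which fell to 0.39 and 0.35 without NOS experiment 2. For Ap2m1 they were Zbtb2 (0.833) and Chpf (0.825), and for Snap23 Akt1s1 (0.850) and Anxa1 (0.824). Without NOS experiment 2, Cby1 was at 0.69, Mapk9 at 0.72 and Chpf at 0.71, and the remaining like genes were at 0.81 to 0.99. All these r values include the moved column. Cby1 is 1 row from Dmxl2 and Akt1s1 1 row from Snap23. Over all probes the median r was 0.46 at 1 row apart, 0.20 at 15 rows, 0.14 at 38 rows, the distance of Angptl4 from Stx7, and -0.0031 over all pairs. The profiles of near rows were thus more alike in general. Sgip1 lies 477 rows from Sv2b.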

How the data were processed

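The deposited values are scores: each column has a mean of 0 and an SD of 0.857 to 0.999, so the authors had standardized each array. The steps before that, including background correction, are not given in the sources used here. Direction was taken as that of brightness. Scores were fitted as deposited, though the tests had been planned for log2 values, except that the control column of MEK experiment 1 was moved down by 1 row (r with the median array 0.104 before, 0.830 after). Probe 1, with no value in that column, was left out, so 1151 probes were tested.

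Limma 3.58.1 in R 4.3.3 estimated a mean for each of 6 treatment groups from 12 rat arrays (residual df 6), with empirical Bayes moderation, two-sided tests and Benjamini-Hochberg adjustment over all probes (threshold 0.05). The fit was tried on simulated scores with independent noise and no shift between experiments. That trial does not cover the spread of these arrays. Other steps used Python 3.11.15, pandas 2.3.3 and matplotlib 3.10.9. Gene symbols came from the platform annotation, updated by gene ID (362 of 384 matched), and promoters from RefSeq (GRCr8, 7 of 7 matched). The members, lists and rules for named genes were chosen with earlier results of these data known. All members are named. Of the other vesicle genes, those passing or else up to 6 by size are given. The 2 most alike named genes are given for each member.

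The labels number the experiments, so the numbers pair the arrays. Deviations of same-numbered arrays from their group means had r of 0.874 to 0.930 (NOS set) and of -0.14 to 0.073 (MEK set). The fit had no block, so its SE and p-values include the shift between experiments. Alternatives were a block, other scalings, moderation, filtering, removal of a running median, and leaving out arrays.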

Additional observations from a re-analysis of the deposited data

Results flagged for a closer look

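The NMDA effect on Dmxl2 had opposite signs in the sets in every experiment. It was -0.12 and -0.10 Z units in MEK experiments 1 and 2 and 0.082 and 0.45 in NOS experiments 1 and 2. The share of all probes with such a split of signs was not counted. The SD over all probes was 0.51 and 0.24 in MEK experiments 1 and 2 and 0.13 and 0.44 in NOS experiments 1 and 2. The Dmxl2 values were thus within it, except in NOS experiment 2, where 0.45 was close to it. The NOS set minus the MEK set gave 0.38 Z units (SE 0.31), which did not pass (limma, adjusted p = 0.999; lowest over the alternatives and arrays left out 0.577). Of the 24 probes around Dmxl2, 1 was lower with NMDA in NOS experiment 2, where their median was 0.39. The part of position in this difference was not tested beyond the removal of a running median, which left 0.22. With that removed the NOS set value was -0.0185, the same sign as in the MEK set (-0.24). Without NOS experiment 2 the difference between sets was 0.19, and leaving out 1 array at a time gave 0.19 to 0.57.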

How the results depend on the processing

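Of 1092 recomputed member values, 985 kept their direction and 107 reversed, none of them past the threshold (lowest adjusted p 0.280, limma). Many of the 985 could not reverse, so their share does not measure how stable the directions are. A block with all arrays kept, other moderation, and the filter leave a difference unchanged. Leaving out an array that a comparison does not use also leaves it unchanged. With experiment as a replicate block, 0 members and 0 probes passed. Sv2b over both sets then had an adjusted p of 0.384 (limma; 0.33, SE 0.11), and the block changed no call. Without the control of MEK experiment 2, 1 probe passed for NMDA in the MEK set, over both sets, for the difference between sets and for PD98059 against control (0 to 1 over the arrays left out). With block, trend and robust moderation, and MEK control 1 left out, 13 passed over both sets. The last setting and the block without NOS experiment 2 were chosen after the data were seen. With the dimmest probes left out, Snap23 and Ap2m1 had no value. The number of arrays limits the precision, and signal over background is not in the scores. The causes of the reversals were not tested. Reversed values with NOS experiment 2 left out and under replicate block, NOS experiment 2 left out were Cltc probe 202 -0.0713 for NMDA (NOS), -0.0560 for NMDA (both), -0.0306 for NOS minus MEK, 0.0874 for nitroarginine, Dmxl2 -0.0149 for NMDA (both), Snap23 0.437 for NMDA (NOS), 0.0648 for NMDA (both), Stx7 -0.0239 for NMDA (NOS). Reversed values with the column as deposited were Ap2m1 0.0470 for NMDA (both), Cltc probe 202 -0.121 for NMDA (both), Dmxl2 0.0534 for NMDA (MEK). Reversed values with median and MAD scaling were Ap2m1 0.0630 for NMDA (both), Cltc probe 202 0.00152 for NMDA (MEK), Cltc probe 651 0.157 for NOS minus MEK, -0.0570 for nitroarginine, Snap23 0.147 for NMDA (NOS), 0.0428 for NMDA (both), Stx7 0.0756 for NMDA (both). Reversed values after quantile normalization were Cltc probe 202 0.00896 for NMDA (MEK), Cltc probe 651 0.127 for NOS minus MEK, -0.0647 for nitroarginine, Stx7 0.0408 for NMDA (both). Reversed values under replicate block, MEK_control replicate 1 left out and under replicate block, variance trend and robust moderation, MEK_control replicate 1 left out were Ap2m1 0.152 for NMDA (both), Cltc probe 202 0.0505 for NMDA (MEK), Cltc probe 651 -0.0465 for NMDA (MEK), 0.112 for NOS minus MEK, Sv2b 0.0393 for NOS minus MEK. Reversed values with the running median removed were Cltc probe 202 0.0667 for NMDA (MEK), -0.0483 for NOS minus MEK, Cltc probe 651 -0.109 for NMDA (NOS), -0.00930 for NMDA (both), Dmxl2 -0.0185 for NMDA (NOS), -0.131 for NMDA (both), -0.0101 for PD98059, Eps15 0.0701 for NMDA (both), -0.0149 for nitroarginine, Snap23 -0.188 for NOS minus MEK, -0.0610 for PD98059, 0.0111 for nitroarginine, Stx7 -0.00349 for PD98059, 0.00504 for nitroarginine, Sv2b 0.00814 for NOS minus MEK, -0.106 for nitroarginine. Leaving out 1 array at a time reversed these values, with ranges of Ap2m1 -0.203 to 0.480 for NMDA (MEK), -0.686 to 0.217 for NMDA (NOS), -0.274 to 0.178 for NMDA (both), -0.825 to 0.0783 for NOS minus MEK, -0.235 to 0.954 for nitroarginine, Cltc probe 202 -0.139 to 0.0574 for NMDA (MEK), -0.103 to 0.251 for NMDA (NOS), -0.0719 to 0.105 for NMDA (both), -0.0623 to 0.291 for NOS minus MEK, -0.000935 to 0.0488 for PD98059, -0.271 to 0.119 for nitroarginine, Cltc probe 651 -0.0107 to 0.201 for NMDA (MEK), -0.433 to 0.564 for NMDA (NOS), -0.169 to 0.329 for NMDA (both), -0.528 to 0.469 for NOS minus MEK, -0.434 to 0.533 for nitroarginine, Dmxl2 -0.0166 to 0.173 for NMDA (both), -0.0309 to 0.0895 for PD98059, Eps15 -0.0317 to 0.0734 for NMDA (MEK), -0.0277 to 0.0717 for PD98059, Snap23 -0.643 to 0.0290 for NMDA (MEK), -0.473 to 0.343 for NMDA (NOS), -0.390 to 0.0182 for NMDA (both), -0.166 to 0.650 for NOS minus MEK, -0.179 to 0.209 for PD98059, -0.128 to 0.0582 for nitroarginine, Stx7 -0.161 to 0.0825 for NMDA (both), -0.0404 to 0.143 for PD98059, Sv2b -0.0297 to 0.533 for NMDA (NOS), -0.444 to 0.118 for NOS minus MEK, -0.0499 to 0.0631 for PD98059, -0.236 to 0.244 for nitroarginine.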
